A study of Mus musculus with 6 samples.

Results

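The 41 interferon-stimulated and interferon receptor genes were followed in double-positive (DP) thymocytes, the T cell precursors of the thymus that carry the CD4 and the CD8 coreceptor together. They were the chains Ifnar1, Ifnar2, Ifngr1 and Ifngr2 of the interferon receptors, and genes that interferons induce or that transmit their signal. A gene was taken as measured where a probe set of the array named it and no other gene, and the brightest such probe set over the 6 arrays stood for it. This held for 36 of the 41, out of 19938 genes measured in this way. The genes Isg15, Irgm2, Igtp and Gbp2 shared a probe set with another symbol, no probe set was paired with Ifi44, and these 5 were not analysed here.

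The cells came from Hdac3 knockout (KO) mice and from wild-type (WT) mice, all labelled C57BL/6, untreated and 3 weeks old, with 3 arrays per genotype. HDAC3 is the histone deacetylase of the NCoR/SMRT corepressor complexes. The title names the knockout after Lck, a gene of the T lineage, but the deleted part of Hdac3, the driver of the deletion and the alleles carried by the WT mice are not stated in the sources used here. RNA of 2 mice per genotype was pooled according to the design text, which counts 3 biological replicates and does not assign mice to arrays, so the p-values measure the spread between these arrays, and part of it may be technical. The 11 measured DP marker genes, among them Cd4, Cd8a and Rag1, were bright on all arrays, with mean signals between 7.54 and 12.98 on the log2 scale. Of these, Themis, a T cell receptor signalling protein, was called higher in KO cells (0.43), Cd1d1, which presents lipids to NKT cells, was called lower (-0.65), and 9 did not pass. With 1 array left out, Themis passed in 1 of 6 fits and Cd1d1 in 2 of 6. Hdac3 itself had log2 values of 8.28, 8.32 and 8.32 on KO arrays 1 to 3, against 9.40, 9.42 and 9.44 on WT arrays 1 to 3 (log2 difference KO minus WT -1.12, SE 0.08, limma adjusted p = 0.000355).

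Type I interferons bind a receptor of the chains IFNAR1 and IFNAR2 and interferon gamma binds IFNGR1 and IFNGR2. From the type I receptor, JAK1 and TYK2 signal to a complex with STAT2 and IRF9, which binds the interferon-stimulated response element (ISRE). The gamma receptor signals through JAK1 and JAK2, and its target genes carry the gamma-activated site (GAS). The genes switched on in this way sense foreign nucleic acid, block viral RNA and proteins, attack the vacuoles of intracellular microbes, or feed back on the signal. In the thymus, interferon signals are best known from the later, mature stages of thymocytes.

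The interferon genes did not move as a block. Of the 36 measured, 4 were higher in KO cells, Ifngr1, Irf1, Zbp1 and Oas3, 1 was lower, Gbp3, and 31 did not pass (limma over 23410 probe sets, Benjamini-Hochberg adjusted p under 0.05). Higher calls made up 11.1% of the interferon genes and lower calls 2.78%, against 1.75% and 4.04% of all probe sets tested, of which 5.79% passed. None of the 36 changed by as much as 2-fold. After quantile normalization, which gives all arrays the same distribution, the same 4 were higher and 2 were lower, Gbp3 and Xaf1, where 1.4% and 2.6% of all probe sets were (4.0% in both directions). Cyclic loess also gave 4 higher and 2 lower, beside 1.53% and 2.83% (4.36% in both). Median centring gave 1 higher, Oas3, and 4 lower, Gbp3, Xaf1, Ifit2 and Ifnar2, beside 0.842% and 7.96% (8.8% in both, or 197 higher and 1863 lower probe sets, against 409 and 946 from the deposited values). From the deposited values the median log2 difference of the 36 was -0.05, against 0.02 over all probe sets tested, and their median absolute difference was 0.24, against 0.15. The groups did not overlap for 7 genes higher and 4 lower in KO cells, which is 30.6% of the 36 and near the 30.0% of all probe sets tested. In bulk RNA, a change in how many cells express a gene and a change in RNA per cell cannot be told apart.

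**Figure D1:**
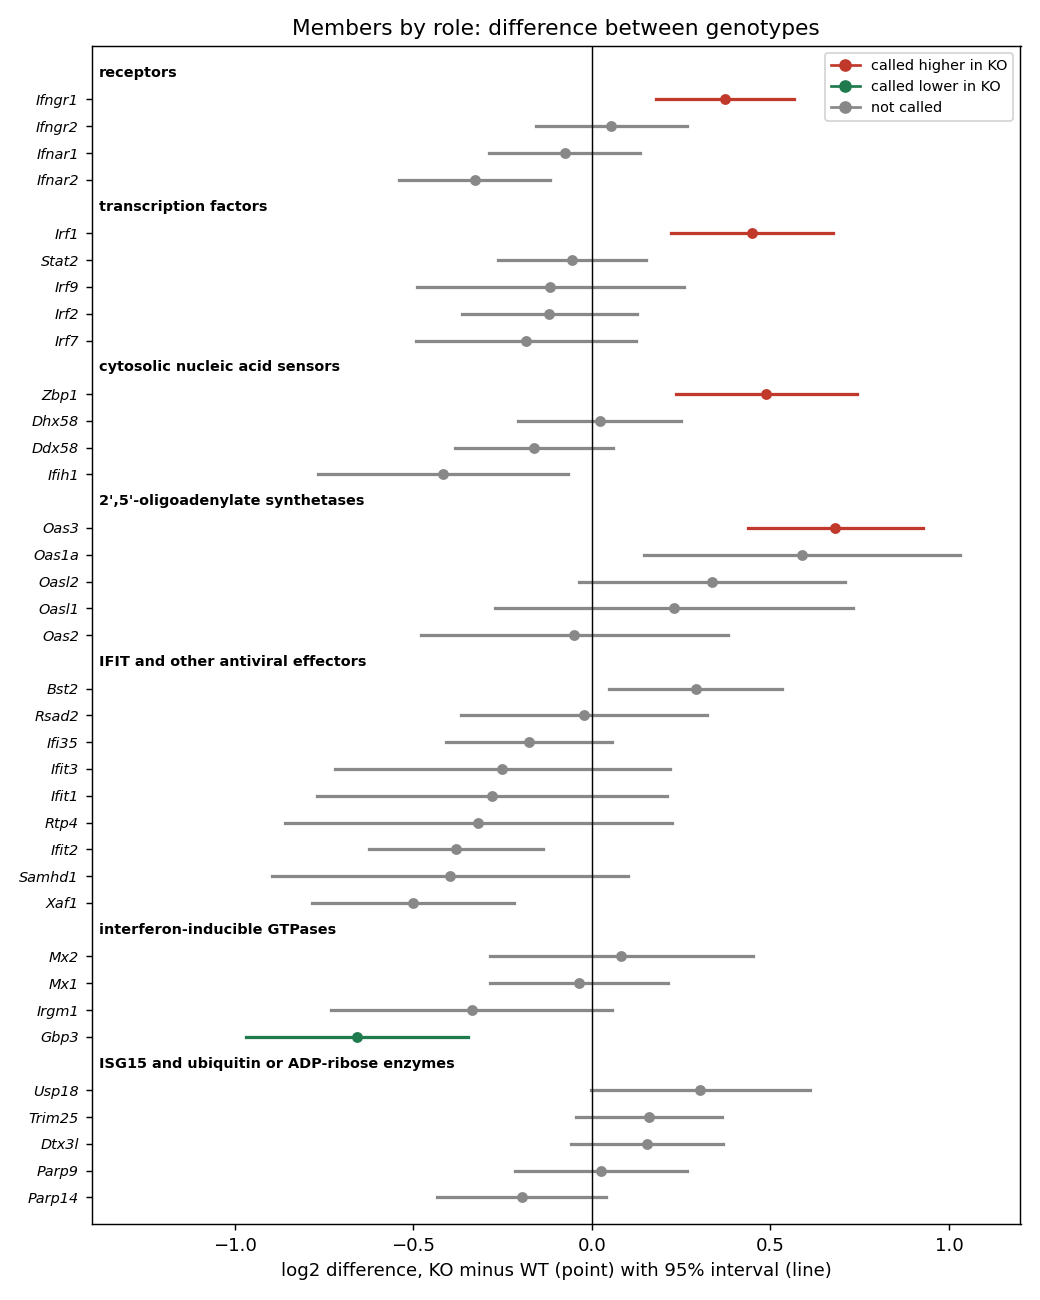
Log2 difference (KO minus WT, horizontal axis) of the 36 measured interferon genes with its 95% interval from limma, 3 arrays per genotype, grouped by role. Ifngr1, Irf1, Zbp1 and Oas3 lie to the right of 0 and Gbp3 to the left as called genes, and the values run from -0.66 to 0.68.

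Array by array, the median of the 36 genes relative to their WT means was -0.05, -0.11 and 0.05 on KO arrays 1 to 3, against 0.02, -0.08 and 0.06 on WT arrays 1 to 3. No array carried a general rise or fall of these genes. Their 95% intervals reached a median of 0.25 to either side, and 0.54 at most, so smaller shifts of single genes could not be resolved. Larger ones could be missed too. On simulated arrays with 200 of 23410 probe sets changed, 25.5% of log2 changes of 0.5 and 81.9% of changes of 1 were called. In the data 1355 probe sets were called, which makes the adjusted threshold less strict than in the simulation. These shares therefore do not carry over directly and may be too low for the data. Signal was compressed on the KO arrays, whose interquartile ranges were 3.06 to 3.25, against 3.29 to 3.49 on the WT arrays. Probe sets of middle brightness had a positive median difference (0.16 near a log2 signal of 5.48) and brighter ones a negative one (-0.17 near 7.78), and values after quantile normalization are given beside the calls for that reason. Among the interferon genes, 13 lay below the median signal of the probe sets tested and 23 above it, with 1 higher and 1 lower call among the dim ones and 3 higher calls among the brighter ones.

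**Figure D2:**
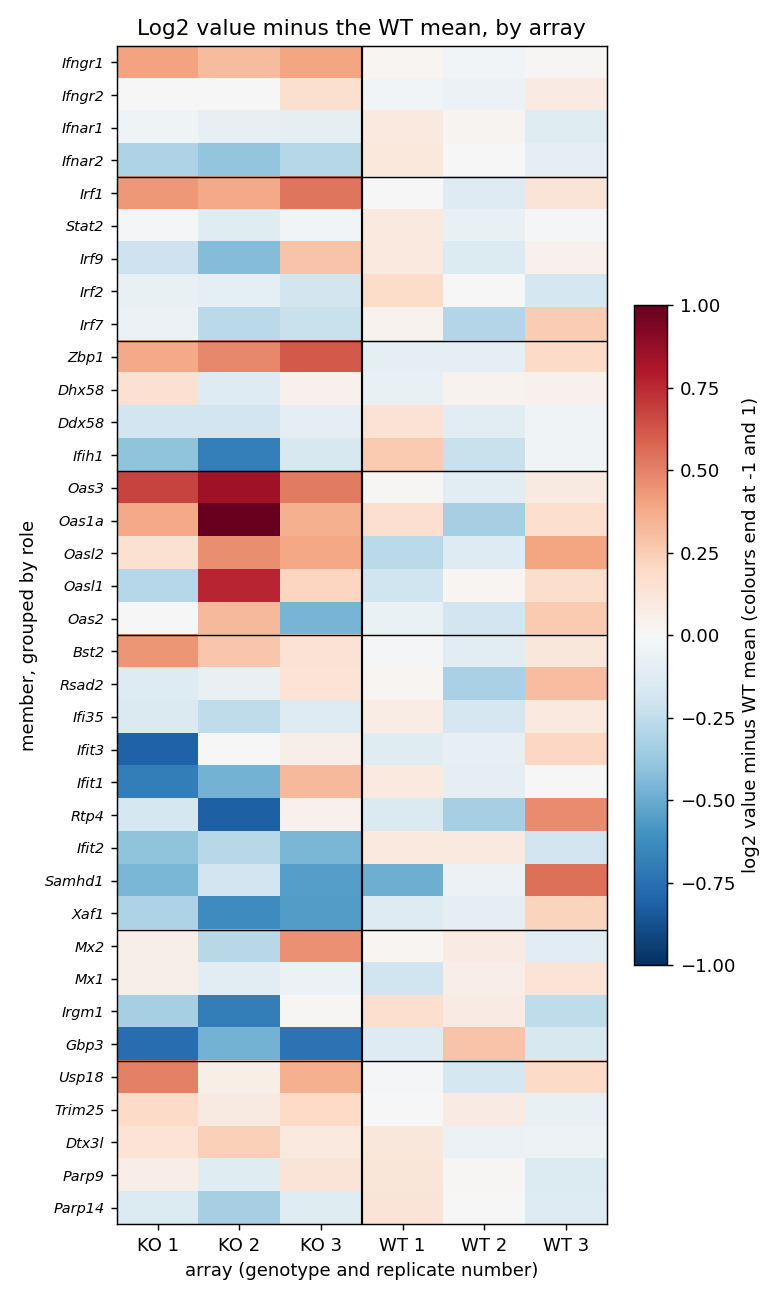
Log2 value minus the WT mean (colour) of the 36 interferon genes on KO arrays 1 to 3 (left) and WT arrays 1 to 3 (right), with lines between the role groups. Ifngr1, Irf1, Zbp1 and Oas3 are red on all KO arrays, Gbp3 is blue there, and the 5 synthetase genes have their highest value on KO array 2.

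Promoters were read for the motifs through which interferons act, ISRE and GAS. RefSeq promoters (GRCm38.p6) were at hand for 27 of the 36 genes, and the 250 bases before each annotated start were searched for the ISRE core (GAAA, any 2 bases, GAAA, or its reverse complement TTTC, any 2 bases, TTTC) and for the palindrome TTCNNNGAA as GAS. The ISRE core was found for 10 of the 27 genes and in 2.98% of all 32851 promoters, and GAS for 7 of the 27 and in 7.02% of all. Both were found in Bst2, where they overlap, and in Irf2 and Oas1a. Neither was found for 13 of the 27, so these matches do not sort the genes by the signal that reaches them. Shown 5′ to 3′ on the gene's strand are 40 bases around the ISRE core nearest to the start, with every core inside the stretch in capitals, first for the 2 genes that were called:
Oas3 (chr5:120777710-120777749, minus strand): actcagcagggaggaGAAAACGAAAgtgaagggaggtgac
Gbp3 (chr3:142559990-142560029, plus strand): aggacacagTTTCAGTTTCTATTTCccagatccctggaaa
Oas1a (chr5:120907526-120907565, minus strand): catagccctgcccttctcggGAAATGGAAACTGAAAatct
Ifit1 (chr19:34640789-34640828, plus strand): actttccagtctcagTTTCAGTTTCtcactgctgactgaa
Ifit3 (chr19:34583392-34583431, plus strand): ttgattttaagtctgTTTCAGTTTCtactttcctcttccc
Bst2 (chr8:71537572-71537611, minus strand): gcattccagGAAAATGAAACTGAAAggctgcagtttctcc
Irgm1 (chr11:48871421-48871460, minus strand): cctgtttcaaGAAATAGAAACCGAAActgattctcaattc
Stat2 (chr10:128270261-128270300, plus strand): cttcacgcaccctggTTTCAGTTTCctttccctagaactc

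The remaining 2 with an ISRE core were Irf2 and Rsad2. The 10 genes with an ISRE core did not share a direction: Oas3 was higher in KO cells, Gbp3 was lower, and 8 did not pass, with differences from -0.66 to 0.68 and a median of -0.09. Within the stretches shown, Gbp3, Ifit1, Ifit3 and Stat2 hold the same 10 letters, TTTCAGTTTC, and Bst2 and Oas1a hold their reverse complement, GAAACTGAAA. Of these 6, Gbp3 was called lower (-0.66), and Ifit1, Ifit3, Stat2, Bst2 and Oas1a differed by -0.28, -0.25, -0.06, 0.29 and 0.59 without passing. Irf1 holds no ISRE core in this window and has a GAS match whose first base lies 90 bases before the start, shown here with the match in capitals because it is the one called gene with that motif:
Irf1 (chr11:53769908-53769947, plus strand): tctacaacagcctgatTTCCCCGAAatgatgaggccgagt

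For Ifngr1 neither motif was found in these letters, and for Zbp1 no promoter was in the table. A match is a description of the letters and not of a bound factor.

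Among the receptor chains, Ifngr1 was higher in KO cells and the others did not pass. Ifngr1, the ligand-binding chain for interferon gamma, had log2 values of 11.08, 10.98 and 11.07 on KO arrays 1 to 3, against 10.69, 10.64 and 10.68 on WT arrays 1 to 3. The lowest KO array lay above the highest WT array, and the arrays within each genotype were close together. The log2 difference was 0.37 (SE 0.09, limma adjusted p = 0.040), which is 1.29-fold, and 0.37 after quantile normalization (limma adjusted p = 0.035). The difference stayed between 0.36 and 0.40 with 1 array left out and passed only without WT array 3 (limma adjusted p up to 0.13). The call was also lost after median centring (0.27, limma adjusted p = 0.12).

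Ifngr2, the chain that completes that receptor, had values of 9.13, 9.14 and 9.29 in KO cells, against 9.10, 9.08 and 9.21 in WT cells, and the genotypes overlapped (difference 0.05, 95% interval -0.16 to 0.27). Ifnar1, the signalling chain for type I interferons, had 8.928, 8.885 and 8.873 in KO cells, against 9.071, 8.996 and 8.847 in WT cells, with overlap (difference -0.08, 95% interval -0.29 to 0.14). Ifnar2, the chain with the higher affinity for type I interferons, had 8.02, 7.93 and 8.04 in KO cells, against 8.43, 8.32 and 8.22 in WT cells. All KO arrays lay below all WT arrays for Ifnar2, with a difference of -0.33 (95% interval -0.54 to -0.12) that did not pass (limma adjusted p = 0.073), was -0.20 after quantile normalization and passed after median centring (-0.43, limma adjusted p = 0.041). Ifngr1 and Ifnar2, whose proteins each bind their own ligand, had differences of opposite sign.

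In the reference order of protein-coding genes, Ifnar2, Il10rb, Ifnar1 and Ifngr2 follow one another without a gene between them. Il10rb, the chain shared by the receptors for interferon lambda and interleukin-10, is the one of these that passed. Its log2 values were 6.59, 6.58 and 6.73 on KO arrays 1 to 3, against 7.34, 7.23 and 7.17 on WT arrays 1 to 3, a difference of -0.61 (SE 0.10, limma adjusted p = 0.0076). Each KO array lay below each WT array, and the call held in all 6 fits with 1 array left out, at -0.66 to -0.57 (limma adjusted p at most 0.035). The neighbours on either side of Il10rb, Ifnar2 and Ifnar1, did not pass. Ifnlr1, the other chain of the interferon lambda receptor, was dim and differed by 0.28 (limma adjusted p = 0.14).

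Of the kinases on these receptors, Jak2 was lower in KO cells. JAK2, which is carried by the IFNGR2 chain and also serves many other cytokine receptors, had log2 values of 8.69, 8.60 and 8.73 on KO arrays 1 to 3, against 9.38, 9.36 and 9.15 on WT arrays 1 to 3. The genotypes were well apart, with a difference of -0.62 (SE 0.10, limma adjusted p = 0.0091), -0.52 after quantile normalization (limma adjusted p = 0.012) and a call in all 6 fits with 1 array left out, at -0.70 to -0.58 (limma adjusted p at most 0.042). Jak1, which works at both receptors, differed by 0.14 (95% interval -0.06 to 0.35), and Tyk2, the partner of IFNAR1, by -0.01 (95% interval -0.26 to 0.24). Stat3, which these and other cytokine receptors activate, differed by -0.35 and did not pass (limma adjusted p = 0.066). Of the 8 measured genes among kinases, STATs and further interferon regulatory factors, Jak2 was the only one to pass.

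**Figure D3:**
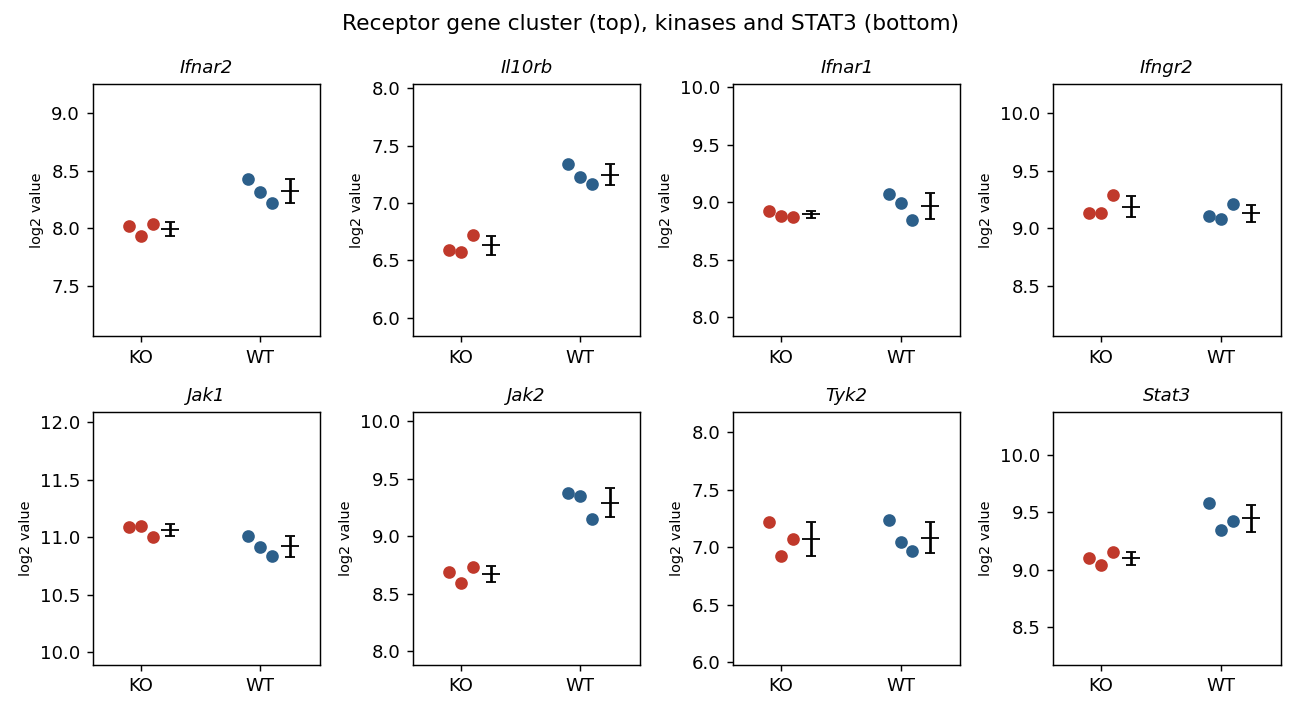
Log2 values on each KO array (red, left) and WT array (blue, right) with mean and SD (black, n = 3), for the neighbouring receptor genes Ifnar2, Il10rb, Ifnar1 and Ifngr2 and for Jak1, Jak2, Tyk2 and Stat3. All panels span the same height of the log2 scale. Il10rb and Jak2 stand apart between genotypes by -0.61 and -0.62.

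Of the 5 transcription factors followed, Irf1 was higher in KO cells and Stat2, Irf2, Irf7 and Irf9 did not pass. Irf1, which interferon gamma induces through GAS and which activates many of the other genes, had log2 values of 8.28, 8.22 and 8.38 on KO arrays 1 to 3, against 7.85, 7.72 and 7.98 on WT arrays 1 to 3. The genotypes did not overlap. The log2 difference was 0.45 (SE 0.10, limma adjusted p = 0.036), or 1.36-fold, and 0.58 after quantile normalization (limma adjusted p = 0.020). A dimmer probe set of Irf1 gave 6.27, 6.24 and 6.41 in KO cells, against 6.15, 6.12 and 6.26 in WT cells, a difference of 0.13 that did not pass (limma adjusted p = 0.41). The probe sets gave differences of unequal size, and their mean gave 0.29 (limma adjusted p = 0.11). With 1 array left out, the brighter probe set differed by 0.38 to 0.51 and passed only without WT array 3 (limma adjusted p up to 0.13). After median centring it gave 0.35 (limma adjusted p = 0.071).

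Stat2 and Irf9, the parts of the ISRE-binding complex that are particular to interferon signalling, differed by -0.06 (95% interval -0.26 to 0.15) and -0.12 (95% interval -0.49 to 0.26). Irf9 varied among the KO arrays, with 7.08, 6.86 and 7.57, against 7.38, 7.15 and 7.33 on the WT arrays. Irf7, the amplifier of type I interferon production, had 6.23, 6.02 and 6.07 in KO cells, against 6.33, 6.00 and 6.55 in WT cells, and overlapped (difference -0.18). Irf2, a relative of Irf1 that competes for the same DNA element, had 8.50, 8.48 and 8.40 in KO cells, against 8.77, 8.57 and 8.40 in WT cells, and overlapped (difference -0.12, 95% interval -0.36 to 0.13). Stat2 had 8.33, 8.22 and 8.31 in KO cells, against 8.44, 8.27 and 8.32 in WT cells, with overlap.

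Of the 4 cytosolic sensors of nucleic acid, Zbp1 was higher in KO cells. ZBP1, a sensor of left-handed double-stranded nucleic acid that can trigger necroptosis, had log2 values of 7.68, 7.77 and 7.91 on KO arrays 1 to 3, against 7.20, 7.20 and 7.49 on WT arrays 1 to 3. Every KO array was above every WT array, by a mean of 0.49 (SE 0.11, limma adjusted p = 0.040), or 1.40-fold. The difference was 0.62 after quantile normalization (limma adjusted p = 0.033) and 0.39 after median centring, where it did not pass (limma adjusted p = 0.053). With 1 array left out it was 0.43 to 0.59 and passed only without WT array 3 (limma adjusted p up to 0.13).

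The RNA helicases of the RIG-I family did not pass. Ifih1, which encodes the long double-stranded RNA sensor MDA5, had 5.80, 5.52 and 6.04 in KO cells, against 6.46, 5.98 and 6.17 in WT cells, with overlap (difference -0.42, limma adjusted p = 0.14). Ddx58, which encodes RIG-I, differed by -0.16 (95% interval -0.38 to 0.06), and Dhx58, which encodes their regulator LGP2, by 0.02 (95% interval -0.21 to 0.25). Zbp1 and Ifih1 had the largest differences of this group and opposite signs.

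**Figure D4:**
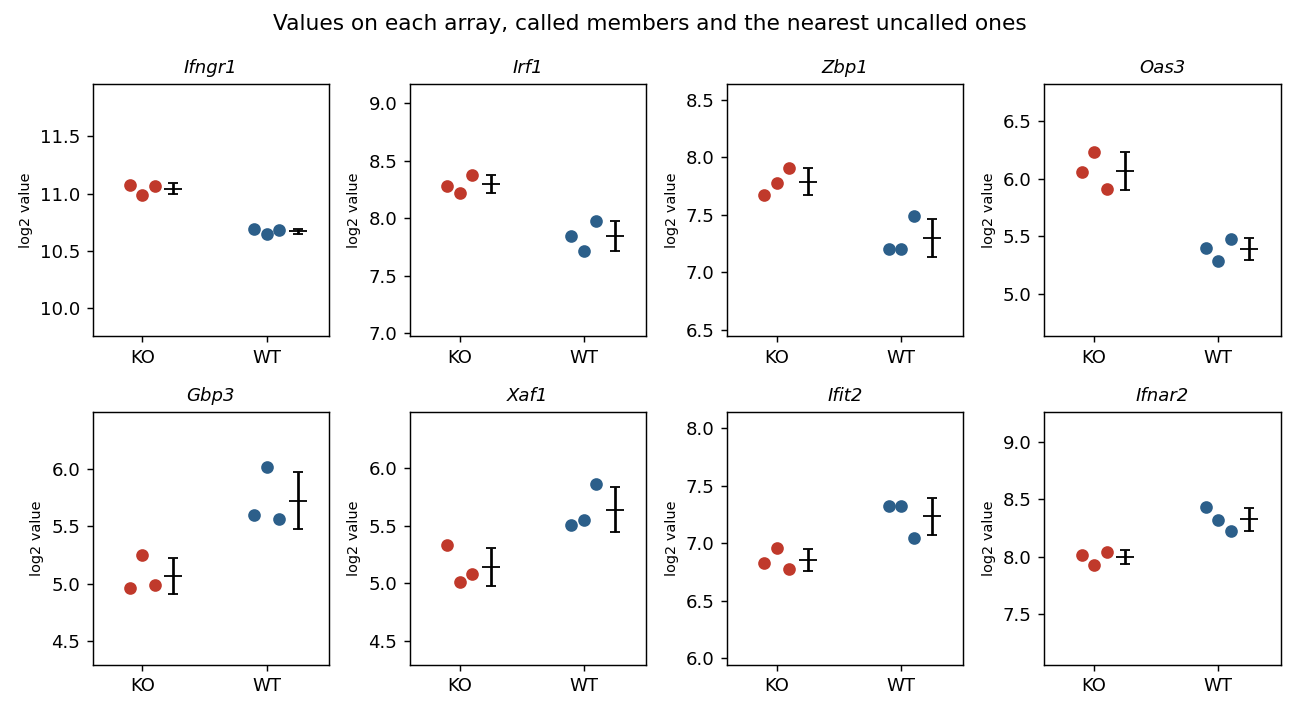
Log2 values on each KO array (red, left) and WT array (blue, right) with mean and SD (black, n = 3), for the 5 called genes Ifngr1, Irf1, Zbp1, Oas3 and Gbp3 and for Xaf1, Ifit2 and Ifnar2, whose adjusted p lay between 0.050 and 0.073. All panels span the same height of the log2 scale, and the genotypes do not overlap in any of the 8.

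The 2',5'-oligoadenylate synthetases make the small nucleotide that activates RNase L, which cuts viral and cellular RNA. Oas3, the largest synthetase, was the one of 5 family genes to pass. It had log2 values of 6.06, 6.23 and 5.91 on KO arrays 1 to 3, against 5.40, 5.28 and 5.48 on WT arrays 1 to 3. The groups were clearly apart. Oas3 differed by 0.68 on the log2 scale (SE 0.11, limma adjusted p = 0.0092), or 1.60-fold, and by 0.61 after quantile normalization (limma adjusted p = 0.015). Oas3 was the only one of the 5 called interferon genes to pass in all 6 fits with 1 array left out, at 0.60 to 0.76 (limma adjusted p at most 0.042). It lost its call after quantile normalization without WT array 2 (0.56, limma adjusted p = 0.066). Of the 5 synthetase genes, 4 were dim, below the median signal of the probe sets tested, and Oas3 was one of them.

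Oas1a, the small synthetase, had 5.58, 6.24 and 5.56 in KO cells, against 5.37, 4.87 and 5.37 in WT cells. These groups did not overlap either, but the spread was wider and the difference of 0.59 (95% interval 0.15 to 1.03) did not pass (limma adjusted p = 0.11). Oasl2, a synthetase-like protein, had 5.61, 5.92 and 5.84 in KO cells, against 5.19, 5.33 and 5.85 in WT cells (difference 0.34, limma adjusted p = 0.24). It passed without WT array 3, which had the highest WT value (0.53, limma adjusted p = 0.036). Oasl1, whose protein represses translation of Irf7 mRNA, differed by 0.23 and Oas2 by -0.05, each with overlap.

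All 5 synthetase genes had their highest value of the 6 arrays on KO array 2, whereas 1 of the other 31 genes did. That array also had the highest level of neutrophil marker genes. The median of 14 neutrophil markers relative to the WT means was 0.064, 0.997 and 0.078 on KO arrays 1 to 3, against -0.024, -0.015 and 0.090 on WT arrays 1 to 3, and the list's mean log2 level spanned 4.47 to 5.85 in KO cells, against 4.34 to 4.47 in WT cells. None of the 14 was called, but a rise on 1 array also widens the SE, so this says little about that array. Without KO array 2, Oas3 still passed (0.60, limma adjusted p = 0.035), Oas1a differed by 0.37, Oasl2 by 0.27, Oasl1 by -0.03 and Oas2 by -0.24, and none of these last 4 passed. The part of neutrophil RNA in the values of the 5 synthetase genes, Oas3 included, was not tested.

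Markers of other cells were read in the same way. Relative to the WT means, the medians of 8 macrophage and monocyte markers were -0.02, 0.17 and 0.07 on KO arrays 1 to 3, against -0.08, 0.06 and 0.07 on WT arrays 1 to 3, and those of 8 conventional dendritic cell markers were 0.00, 0.14 and 0.21, against -0.11, -0.01 and 0.09. None of these 16 genes was called. The macrophage and monocyte median does not show Lyz2, with 4.54, 6.65 and 4.71 on KO arrays 1 to 3, against 4.63, 4.09 and 4.65 on WT arrays 1 to 3. No other gene of that list rose as much on KO array 2. A rise on 1 array also widens the SE (0.46 for Lyz2), so the missing call says little about that array. The list for plasmacytoid dendritic cells, the main source of type I interferon, had a median difference of -0.07 over 7 measured genes. Of these, Tcf4 and Ly6d were called lower, Tcf4 in 2 of 6 and Ly6d in 5 of 6 fits with 1 array left out. After quantile normalization Tcf4 did not pass (-0.38, limma adjusted p = 0.053). DP thymocytes also express some of that list. For mature single-positive thymocytes, the medians of 7 markers were -0.27, 0.06 and 0.13 on KO arrays 1 to 3, against -0.22, 0.10 and 0.26 on WT arrays 1 to 3, and Il7r, the interleukin-7 receptor chain, was called lower (-1.19). Of 7 markers of double-negative thymocytes, the stage before DP, Il2ra, the interleukin-2 receptor alpha chain, was called higher, with 7.92, 7.36 and 8.09 on KO arrays 1 to 3, against 6.23, 4.99 and 5.33 on WT arrays 1 to 3. Its log2 difference of 2.28 (limma adjusted p = 0.0033) passed in all 6 fits with 1 array left out, and Cd44 of the same list was called lower (-0.66). Epcam among 6 thymic epithelial markers (-0.37) and Car2 among 3 erythroid markers (-0.87) were called lower, Epcam in 0 of 6 and Car2 in 4 of 6 fits with 1 array left out, and none of 7 B cell markers was called. The markers' part in the interferon genes' values was not tested.

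Among the IFIT genes and other antiviral effectors none of 9 measured passed, and 8 of the 9 differences were negative, with a group median of -0.28. Xaf1, an interferon-induced partner of the apoptosis inhibitor XIAP, had log2 values of 5.33, 5.01 and 5.08 on KO arrays 1 to 3, against 5.51, 5.55 and 5.86 on WT arrays 1 to 3. The groups did not overlap, and the difference of -0.50 lay just outside the threshold (limma adjusted p = 0.0501) and passed after quantile normalization (-0.61, limma adjusted p = 0.033). Ifit2, which binds viral RNA and also acts in cell death, had 6.83, 6.96 and 6.77 in KO cells, against 7.33, 7.33 and 7.04 in WT cells (difference -0.38, limma adjusted p = 0.072, and -0.27 after quantile normalization). Its relatives Ifit1 and Ifit3 overlapped between genotypes. Ifit1 had 4.87, 5.09 and 5.89 on KO arrays 1 to 3, against 5.66, 5.47 and 5.55 on WT arrays 1 to 3. Ifit3 was low on KO array 1, at 3.68, against a lowest WT value of 4.36.

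Bst2, the tetherin that holds budding virus on the membrane, was the exception in sign, with 6.996, 6.834 and 6.701 in KO cells, against 6.540, 6.451 and 6.669 in WT cells. It did not overlap and did not pass (difference 0.29, limma adjusted p = 0.14). Samhd1, which depletes deoxynucleotides, differed by -0.40, and its WT arrays ranged from 5.01 to 6.05. Rtp4 differed by -0.32, Ifi35 by -0.18 and Rsad2, the antiviral enzyme viperin, by -0.02. WT array 3 held the highest value of 6 of these 9 genes.

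The interferon-inducible GTPases act on the vacuoles of intracellular microbes or, for the Mx proteins, on viral nucleocapsids. Gbp3, a guanylate-binding protein, was the one of 4 measured genes to pass, and it was lower in KO cells. Its log2 values were 4.96, 5.25 and 4.99 on KO arrays 1 to 3, against 5.60, 6.01 and 5.56 on WT arrays 1 to 3. The groups did not overlap. The difference was -0.66 (SE 0.14, limma adjusted p = 0.028), or 1.58-fold, and -0.75 after quantile normalization (limma adjusted p = 0.016). With 1 array left out it was -0.75 to -0.51 and passed without KO array 2 or WT array 3 but not in the other 4 fits (limma adjusted p up to 0.10). Gbp3 was dim, below the median signal of the probe sets tested, and the GBP genes are similar in sequence. Its level is therefore less certain than that of Ifngr1 or Irf1. Oas3 was also dim, which limits its level too. The call of Oas3 held with each array left out, however, where those of Ifngr1 and Irf1 held in 1 of 6 fits. That of Gbp3 held in 2 of 6, and also after median centring (limma adjusted p = 0.0084), where Ifngr1 and Irf1 did not pass.

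Irgm1, a regulatory GTPase of the IRG family, had 6.90, 6.53 and 7.24 in KO cells, against 7.39, 7.31 and 6.98 in WT cells, with overlap (difference -0.34, limma adjusted p = 0.26). Mx1 and Mx2 were among the dimmest of the 36, with means near 4 on the log2 scale, and differed by -0.04 and 0.08. Mx1 is known to be disrupted in most laboratory mouse strains.

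Enzymes of ISG15 conjugation, ubiquitin and ADP-ribose did not pass in any of 5 cases. Usp18, which removes ISG15 and restrains signalling at IFNAR2, had 6.72, 6.28 and 6.58 in KO cells, against 6.21, 6.05 and 6.41 in WT cells (difference 0.30, limma adjusted p = 0.20). Parp14, an ADP-ribosyltransferase, had 7.55, 7.36 and 7.57 in KO cells, against 7.82, 7.69 and 7.56 in WT cells, with overlap (difference -0.20, limma adjusted p = 0.28). Trim25, the ubiquitin ligase that activates RIG-I, differed by 0.16 with no overlap between genotypes, Dtx3l, a ubiquitin ligase that works with PARP9, by 0.15, and Parp9 by 0.03.

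**Figure D5:**
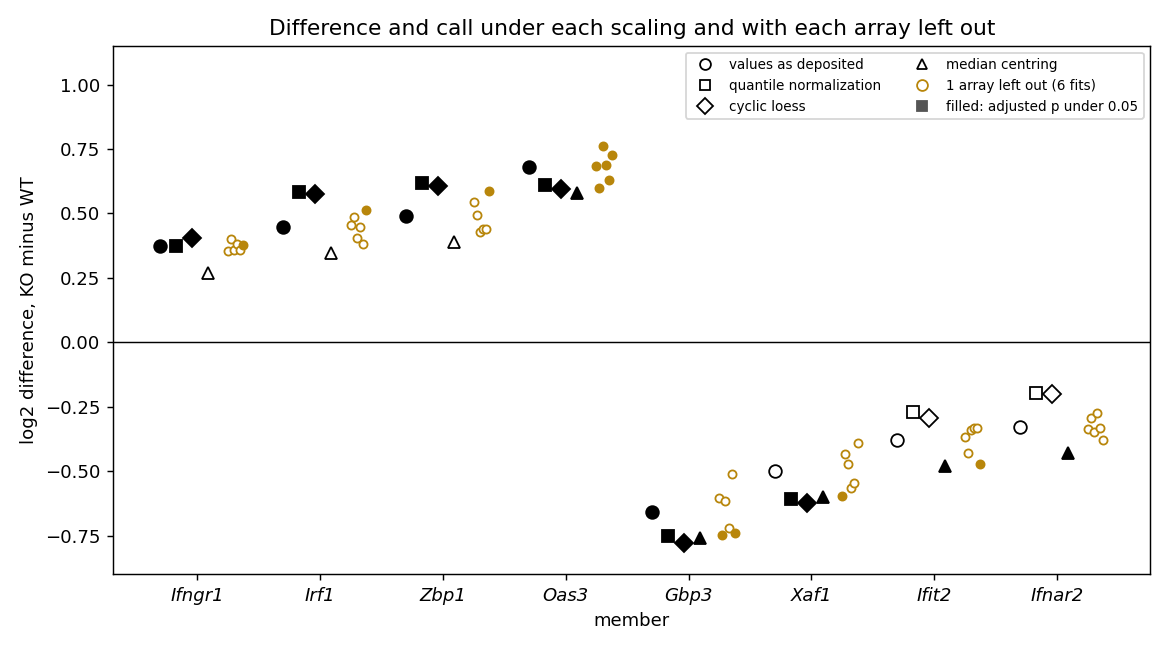
Log2 difference (KO minus WT, vertical axis) of 8 interferon genes from the deposited values, after 3 further scalings, and with each of the 6 arrays left out, where filled symbols have an adjusted p under 0.05. Oas3 passes in every fit drawn, which leaves out quantile normalization with 1 array left out, with 1 array left out at 0.60 to 0.76, while Ifngr1, Irf1 and Zbp1 pass in 1 of their 6 fits with 1 array left out.

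Other genes of the pathway were counted by list. Over 7 lists with 121 measured genes, 0 were higher in KO cells, 12 were lower and 109 did not pass, and the median difference was -0.09. The 12 lower genes make up 9.92% of those measured, beside 4.04% of all probe sets tested. After quantile normalization 10 were lower and 1 was higher, Socs3, where 2.6% of all probe sets were lower and 1.4% higher.

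Of 57 further interferon-stimulated genes, 7 were lower and none was higher. Epsti1, an interferon-response protein, had the largest change, with 7.001, 6.445 and 7.002 on KO arrays 1 to 3, against 8.198, 8.060 and 8.135 on WT arrays 1 to 3 (log2 difference -1.31, SE 0.15, limma adjusted p = 0.0020). The genotypes were far apart, and Epsti1 passed in all 6 fits with 1 array left out (-1.41 to -1.13). Slfn1, a Schlafen protein that slows T cell growth, differed by -0.83, the TRIM protein gene Trim30d by -0.82, Tnfsf10, the death ligand TRAIL, by -0.76, Herc6, the mouse ligase for ISG15, by -0.66, Parp12, an ADP-ribosyltransferase, by -0.53 and Gbp7, a relative of Gbp3, by -0.42. Each of these 6 lost its call in 2 or more of the fits with 1 array left out (limma adjusted p up to 0.13 for Gbp7), and Gbp7 also after quantile normalization (-0.28).

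Interferon ligands were near the low end of the signal range, with 13 of 16 measured genes below the median signal and none called. Ifng had 4.63, 4.90 and 4.75 in KO cells, against 4.48, 4.41 and 4.76 in WT cells (difference 0.22, limma adjusted p = 0.28), and Ifnb1 differed by 0.02. Ifne had the smallest p of the ligands, with a difference of 0.23 (limma adjusted p = 0.19). Several type I interferon genes are near copies of each other, so their probe sets may not separate them.

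Of 15 further sensors and adaptors, Eif2ak2 was lower. It encodes PKR, the kinase that stops translation on double-stranded RNA, and had 5.41, 5.65 and 5.65 in KO cells, against 6.60, 6.42 and 5.95 in WT cells (difference -0.76, limma adjusted p = 0.028). WT array 3 was the lowest of the WT arrays, and with 1 array left out the call held only without that one (-0.94). Among 12 genes of MHC class I and antigen processing, the peptide trimming enzyme gene Erap1 and the peptide transporter gene Tap2 were lower by 0.51 and 0.46 on the log2 scale, and 10 did not pass. With 1 array left out, Erap1 passed in 2 of 6 fits and Tap2 in 1, and Tap2 did not pass after quantile normalization (-0.35). None of 11 negative regulators passed. Socs3, which inhibits JAK kinases, had 7.28, 7.14 and 7.30 in KO cells, against 6.76, 6.59 and 7.01 in WT cells (difference 0.45, limma adjusted p = 0.056).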

How the data were processed

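RNA of DP thymocytes was hybridised to Affymetrix whole-transcript arrays as biotin-labelled target, per the labels' protocols. Groups and replicate numbers come from the sample titles. The analysis starts from the log2 probe set values that the authors deposited. Their range shows the log2 scale, while the background correction, normalization and probe summary are not stated in the sources used here. No detection call or scan date was used.

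Probe sets were named through the platform annotation, in which 21789 of 28853 had 1 symbol, 1621 several and 5443 none, and no gene was named from several. The 23410 with a symbol were fitted with limma 3.58.1 (R 4.3.3; lmFit, eBayes; 2 group means, two-sided), with Benjamini-Hochberg adjustment over all of them and a threshold of 0.05. Precision was limited by having 6 arrays, with a median SE of 0.11. The script was tested on simulated data.

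The members and lists were chosen with earlier results of these data known, so no list was tested as a whole. Values on every array were due for the called genes, the receptors and transcription factors, genes called under another scaling or with 1 array left out, and the 2 smallest p in each role. Of the other pathway lists the called genes were due, or the smallest p where none was called. Any further gene was picked with its values in view. Alternatives comprised 3 scalings (quantile, cyclic loess, median centring), weights per array, a robust prior with a trend on intensity, the replicate block, averaging the probe sets of a gene, leaving dim probe sets out, testing unnamed ones too, and leaving out each array. Quantile normalization with 1 array left out was added after seeing the data.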

Additional observations from a re-analysis of the deposited data

How the results depend on the processing

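The deposited values gave 1355 calls among all probe sets, 4 interferon genes higher and 1 lower in KO cells, and a median difference of -0.05 over the 36. Calls over all probe sets were 2060 after median centring, 2285 with array weights, 936 after quantile normalization and 1812 without dim probe sets. Leaving out 1 array gave 474 (without KO array 2) to 1946 (without WT array 3) calls, with 1 to 5 interferon genes higher and 0 to 2 lower. The count of lower interferon genes was 2 after quantile normalization, cyclic loess or without dim probe sets, 3 with an intensity trend and robust prior, and 4 after median centring or with array weights. It was 0 after quantile normalization without dim probe sets, a filter that removes Gbp3. The count of higher ones was 1 after median centring. The median over the 36 was -0.153 after median centring, which moves the median of all probe sets by -0.10, and 0.036 over those left by quantile normalization without dim probe sets. With quantile normalization and 1 array left out, calls were 654, 437 and 442 without KO arrays 1, 2 and 3, 453 without WT array 1 or 2, and 964 without WT array 3. The higher interferon genes were then 0 without WT array 2, 1 without KO array 2, KO array 3 or WT array 1, and at most 3. The cause of these shifts was not tested. For the 36 interferon genes and Hdac3 under all alternatives, 729 values kept their side of the threshold, 41 fell short of it and 18 newly passed. Only genes called from the deposited values could fall short, so the 41 all come from these few. Most of the 729 come from the 31 uncalled interferon genes and do not measure how firm the calls were. No called value reversed. The 729 include uncalled values that changed sign, such as Irf9 at -0.12 from the deposited values and 0.04 without KO array 2. Deviations of arrays of the same number had correlations of 0.254, -0.071 and -0.033 over 23410 probe sets, which are not independent. Pairs of different number ran from -0.343 to 0.323, so arrays of the same number did not stand out. With the replicate block 1162 probe sets were called, with 3 interferon genes higher and 1 lower, and the gene lost was Ifngr1 (limma adjusted p = 0.063). The number of arrays and the unknown background level limit what could be seen in dim genes, whose median SE was 0.16, against 0.11 in the brighter ones.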

Other observations

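Several of the interferon genes are neighbours in the reference order of protein-coding genes, and their differences were compared as values without a test. Parp14, Dtx3l and Parp9 follow one another and differed by -0.20, 0.15 and 0.03, none of them called. Oas2 and Oas3 are adjacent, and of these Oas3 was called higher in KO cells (0.68) while Oas2 differed by -0.05. Oasl2 and Oasl1 are adjacent and differed by 0.34 and 0.23, and Ifit2 and Ifit3 are adjacent and differed by -0.38 and -0.25, with no call in either pair.

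Guanylate-binding protein genes did not share a direction. Beside Gbp3, called lower in KO cells, the list of further interferon-stimulated genes held Gbp7, called lower at -0.42, and Gbp4, Gbp5, Gbp8 and Gbp9, which did not pass at 0.22, -0.02, -0.56 and 0.22. Gbp7 had log2 values of 7.54, 7.47 and 7.64 in KO cells, against 8.07, 7.99 and 7.85 in WT cells. Gbp8 also had no overlap between genotypes (limma adjusted p = 0.14). These genes are similar in sequence, and what their probe sets share was not tested.

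In antigen processing, Erap1, which trims peptides in the endoplasmic reticulum, had 7.92, 7.75 and 7.84 in KO cells, against 8.47, 8.32 and 8.27 in WT cells. Tap2, a chain of the peptide transporter, had 8.71, 8.61 and 8.67 in KO cells, against 9.28, 9.04 and 9.05 in WT cells. Every KO array lay below every WT array in both. Tap1, the other transporter chain, differed by -0.12, the light chain gene B2m by -0.05, and the immunoproteasome genes Psmb8, Psmb9 and Psmb10 by -0.24, 0.17 and -0.06, none of them called.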
